A study of Mus musculus with 22 samples.

Results

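Regulatory T cells (Tregs) of visceral adipose tissue were compared between a long and a short high fat diet in mice labelled WT, with 3 RNA-seq libraries at 16 weeks and 3 at 4 weeks. These 6 libraries were chosen by their diet and genotype labels from the 22 libraries of the series. Every library came from about 1000 Foxp3-YFP+ cells that were sorted in succession from the tissue of males of the strain C57BL/6 Foxp3.Cre-YFP at ZT0, when the lights come on. In this strain Cre and YFP follow Foxp3, so the sort selects cells by the activity of that gene. The mice of both groups ate a lean diet for 14 weeks before the high fat diet. The 4 weeks group was 18 weeks old and the 16 weeks group 30 weeks old, so the length of the diet and age cannot be told apart. For comparison the text also uses 3 WT libraries of mice on lean diet, 18 weeks old, and libraries of Bmal1 KO Tregs with the same diets and ages. The labels name no sequencing batch and do not state whether replicates are different animals. The p-values therefore reflect the spread between libraries alone, which may be technical. In the main fit that spread was estimated over 18 diet libraries of both genotypes, not over the 6 libraries alone.

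Tregs restrain other immune cells, and those resident in visceral fat carry a program of their own, with the nuclear receptor PPARG, the transcription factor GATA3, the IL-33 receptor chain encoded by Il1rl1 and the receptor KLRG1. In fat they are known for limiting inflammation and for their link to insulin sensitivity, and they are known to decline in obese mice. Activated, tissue-seeking T cells also raise a set of genes for S100 proteins, annexins, galectins and cytoskeletal proteins. Dividing and activated T cells make sterols and fatty acids under the control of the SREBP transcription factors, which are processed when sterols in the endoplasmic reticulum are low.

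After 16 weeks, 2 groups of genes stood lower than after 4 weeks: the effector genes of the S100, annexin, galectin and cytoskeletal classes, and the genes of sterol synthesis. All 20 effector genes tested had a negative log2 fold change, with a median of -0.43, and 26 of the 29 sterol and fatty acid synthesis genes tested did, with a median of -0.48. Over all 11698 genes tested the share with a negative log2 fold change was 48.6% and the median was 0.01. The lists were chosen with earlier results of these data known, so these shares describe the lists and do not test them. No gene by itself passed an adjusted p of 0.05 with the edgeR quasi-likelihood test, and the share called was 0%. Foxp3, the factor that defines Tregs, and the adipose Treg genes as a group showed no common direction. The medians of the effector and sterol lists were negative in the KO libraries too, where 192 genes passed the test.

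The 6 libraries held 2101241 to 3467019 counts. All 3 libraries of 16 weeks, at 2872201 or more, were deeper than all 3 of 4 weeks, at 2526632 or fewer, and 20547 to 22861 genes had a count at 16 weeks against 18969 to 19286 at 4 weeks. Levels are given as CPM, counts scaled to a common library size after TMM normalization. For a gene without counts, the limit that a count of 0 allows was 0.853 to 1.52 CPM in the 6 libraries, which covers counting error only. The part of this depth difference in the results was not tested. Across genes, log2 levels of libraries in the same group had a median Spearman correlation of 0.958, and those of different groups 0.959, so libraries of the same group were no more alike over all genes than libraries of different groups. Genes were counted without a stated strand setting, so reads of overlapping genes cannot be told apart.

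At an unadjusted p under 0.05, edgeR found 884 genes (7.56%) in the WT comparison, 404 higher after 16 weeks (3.45%) and 480 lower (4.1%). DESeq2 called 27 of the 9430 genes it adjusted (0.286%), 7 higher (0.0742%) and 20 lower (0.212%), and limma-voom called 0. Leaving out replicate 1 or 3 of 16 weeks gave 1 gene called by edgeR, and leaving out replicate 2 gave 3. The 3 libraries of 16 weeks lay wholly above or wholly below the 3 of 4 weeks for 1362 genes (11.6%), of which 719 were lower (6.15%) and 643 higher (5.5%). In what follows, counts of list members at an unadjusted p are set beside these shares as description, since the lists were chosen with earlier results known.

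The effector list had the larger share of its members lower. Of the 20 genes on the list, 13 were lower at an unadjusted p under 0.05 (65%) and 0 were higher, and 10 had ranges that did not overlap. Crip1, a small LIM domain protein on chromosome 12 (mm10, 113146316 to 113153879), was at 991, 1039.9 and 1086 CPM after 4 weeks and at 518, 660.0 and 575 CPM after 16 weeks. Every library of 16 weeks was below every library of 4 weeks, and the log2 fold change was -0.83 ± 0.16 (SE), with an edgeR adjusted p of 0.177. Tagln2, an actin-binding protein on chromosome 1 (172500047 to 172507380), was at 1034, 1099 and 1016 CPM after 4 weeks and at 502, 730.4 and 658 CPM after 16 weeks. Its ranges were also apart, with a log2 fold change of -0.74 ± 0.15 and an edgeR adjusted p of 0.177. Lgals1, which encodes galectin-1, a secreted lectin that Tregs use in suppression, lies on chromosome 15 (78926725 to 78930465). Its ranges were apart too: 835, 1045 and 813 CPM after 4 weeks stood against 429, 609.7 and 509.8 CPM after 16 weeks, a log2 fold change of -0.80 ± 0.17. DESeq2 called these 3 genes lower, with adjusted p of 0.00455 for Crip1, 0.00488 for Tagln2 and 0.00678 for Lgals1.

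Among the annexins, calcium-dependent membrane-binding proteins, Anxa6 was at 1083, 1202 and 1287 CPM after 4 weeks and at 781, 867 and 922 CPM after 16 weeks. The groups did not overlap, and the log2 fold change was -0.48 ± 0.10 with an edgeR adjusted p of 0.177 and a DESeq2 adjusted p of 0.00863. The other annexins had smaller differences: the log2 fold change was -0.15 ± 0.12 for Anxa5, -0.21 ± 0.18 for Anxa2 and -0.07 ± 0.39 for Anxa1. Anxa1 spread widely within both groups, at 205, 586 and 253 CPM after 4 weeks and at 141, 544 and 309 CPM after 16 weeks.

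The S100 genes encode small calcium-binding proteins, of which S100a4 and S100a6 mark effector and memory T cells. S100a4 was at 232, 286 and 191 CPM after 4 weeks and at 95.2, 206 and 104 CPM after 16 weeks. Replicate 2 of 16 weeks reached into the range of 4 weeks, and the log2 fold change was -0.81 ± 0.28. S100a6 also overlapped between the groups, at 502, 801 and 561 CPM after 4 weeks and 268, 586 and 405 CPM after 16 weeks, with a log2 fold change of -0.57 ± 0.23. S100a10, the partner of annexin A2, was at 998, 1293 and 1088 CPM and then at 771, 884 and 879 CPM, with no overlap and a log2 fold change of -0.42 ± 0.13. S100a11 and S100a13 had smaller differences, of -0.31 ± 0.13 and -0.28 ± 0.12 on the log2 scale, and neither overlapped.

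Structural genes followed. Lmna, which encodes the nuclear lamins A and C, was at 593, 542 and 683 CPM after 4 weeks and at 193, 538 and 305 CPM after 16 weeks. The highest library of 16 weeks lay just under the lowest of 4 weeks, and the log2 fold change was -0.81 ± 0.33. Vim, the intermediate filament vimentin, had a log2 fold change of -0.54 ± 0.23, but replicate 2 of 16 weeks, at 3054 CPM, was above 2 libraries of 4 weeks, at 2646 and 2516 CPM. Ahnak, a giant scaffold protein, was at 1103, 1149 and 868 CPM and then at 550.2, 900.0 and 871 CPM, with a log2 fold change of -0.43 ± 0.17. The membrane protein gene Emp3, at 396, 373 and 393 CPM and then 285, 312 and 266 CPM, did not overlap. The remaining members Capg, Lgals3, Zyx and Itgb1 had log2 fold changes of -0.26 ± 0.13, -0.57 ± 0.30, -0.13 ± 0.14 and -0.15 ± 0.29.

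**Figure D1:**
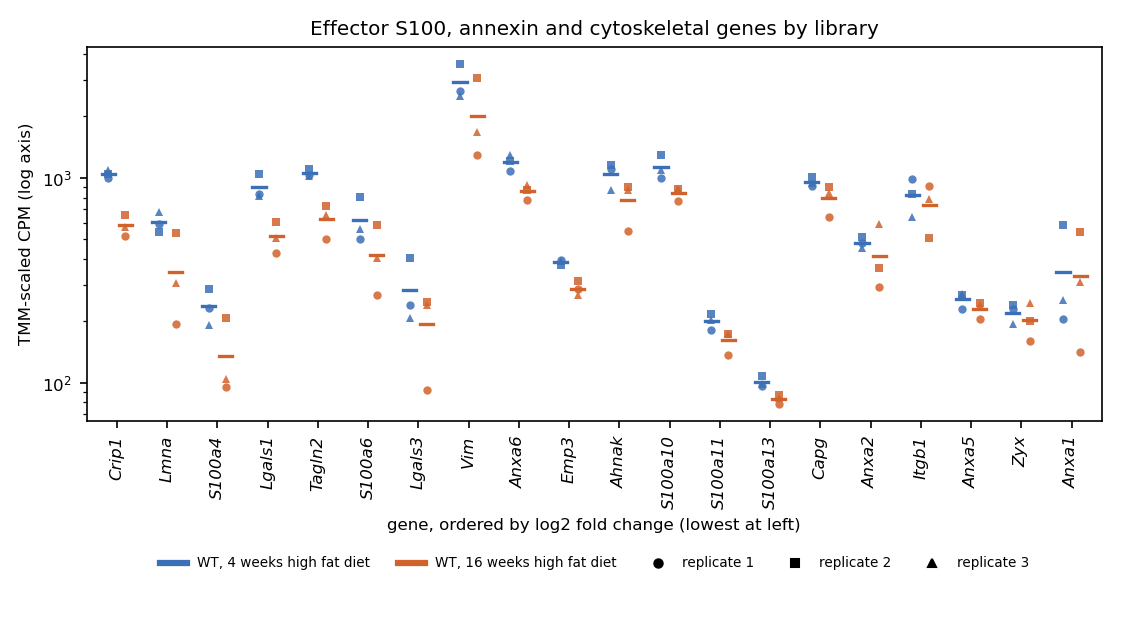
TMM-scaled CPM on a log axis for the 20 effector genes in the 3 WT libraries of 4 weeks (blue) and the 3 of 16 weeks (orange), with marker shape for the replicate and a line for the group mean. The mean was lower after 16 weeks for all 20 genes, and replicate 1 (circles) was the lowest of the 16 weeks libraries for 18 of them.

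The libraries of 16 weeks were not alike in these genes. Replicate 1 was the lowest of the 3 for 18 of the 20 genes and replicate 2 the highest for 15. The summed level of the list was 13968, 16592 and 13763 CPM after 4 weeks and 8336, 12616 and 10684 CPM after 16 weeks, so the groups did not overlap. An exact two-sided permutation test of the sums gave p = 0.1, the smallest that 3 against 3 libraries allow. Leaving out replicate 1 of 16 weeks reduced the members at an unadjusted p under 0.05 from 13 to 6, and leaving out replicate 2 of 4 weeks reduced them to 8.

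The sterol and fatty acid genes are read with the promoters of 4 of them, the 2 with the smallest p and 2 that hold the sterol regulatory element core. SREBPs bind near the start of such genes, often beside a CCAAT box bound by NF-Y. Each window runs from 250 bases before to 50 bases after the start of the gene (RefSeq, GRCm38.p6), with capitals for the letters CACNCCAC or CCAAT on either strand.
Hmgcs1: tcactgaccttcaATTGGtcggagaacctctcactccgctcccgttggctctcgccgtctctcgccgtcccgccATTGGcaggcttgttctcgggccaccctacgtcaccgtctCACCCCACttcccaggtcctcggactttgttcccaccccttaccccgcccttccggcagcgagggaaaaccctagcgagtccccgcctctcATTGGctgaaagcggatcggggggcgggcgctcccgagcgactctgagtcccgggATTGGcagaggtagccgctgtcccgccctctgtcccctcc
Insig1: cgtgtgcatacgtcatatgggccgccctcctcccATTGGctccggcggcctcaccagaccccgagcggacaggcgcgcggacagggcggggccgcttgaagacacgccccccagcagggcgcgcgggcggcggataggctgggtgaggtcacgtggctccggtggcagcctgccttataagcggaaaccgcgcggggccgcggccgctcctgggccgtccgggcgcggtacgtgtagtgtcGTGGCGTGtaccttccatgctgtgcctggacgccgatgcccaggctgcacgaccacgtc
Cyp51: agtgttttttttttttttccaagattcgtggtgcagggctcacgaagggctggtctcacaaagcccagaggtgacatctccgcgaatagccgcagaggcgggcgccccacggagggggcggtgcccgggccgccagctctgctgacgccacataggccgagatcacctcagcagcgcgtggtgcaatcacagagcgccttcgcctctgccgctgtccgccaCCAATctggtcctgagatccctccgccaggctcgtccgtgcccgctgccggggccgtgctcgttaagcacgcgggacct
Srebf2: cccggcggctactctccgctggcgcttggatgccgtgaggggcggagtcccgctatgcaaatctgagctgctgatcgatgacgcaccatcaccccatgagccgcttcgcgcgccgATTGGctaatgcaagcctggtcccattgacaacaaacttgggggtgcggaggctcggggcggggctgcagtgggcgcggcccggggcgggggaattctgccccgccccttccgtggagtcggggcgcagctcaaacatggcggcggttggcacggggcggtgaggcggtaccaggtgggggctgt
The windows are chr13:119690101-119690400 (plus strand) for Hmgcs1, chr5:28071162-28071461 (plus) for Insig1, chr5:4104648-4104947 (minus) for Cyp51 and chr15:82147019-82147318 (plus) for Srebf2. The core CACNCCAC was present in 6.24% of the 32851 promoters of the table and in 3 of the 21 sterol list genes with a promoter there, namely Hmgcs1, Insig1 and Acat2. The box CCAAT was present in 37.4% of all promoters and in 17 of the 21, and no printed core overlaps a CCAAT box. A match describes letters in the window and not a bound site.

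Of the 29 sterol and fatty acid synthesis genes tested, out of 31 listed, 14 were lower at an unadjusted p under 0.05 (48.3%), 0 were higher, and 9 had ranges that did not overlap, all lower. The regulators came in different directions. Srebf2, the SREBP that drives cholesterol synthesis (chromosome 15, 82147181 to 82205379), was at 258, 261 and 243 CPM after 4 weeks and at 169, 179 and 173 CPM after 16 weeks. It had the smallest p of the list. The libraries of each group lay close together and far from the other group, with a log2 fold change of -0.55 ± 0.13, an edgeR adjusted p of 0.263 and a DESeq2 adjusted p of 0.0414. Srebf1, whose products act mainly on fatty acid synthesis, was at 139, 148 and 118 CPM and then at 135, 145 and 149.6 CPM, a log2 fold change of 0.08 ± 0.11. Scap, the escort protein of the SREBPs, had a log2 fold change of 0.11 ± 0.19. Insig1, a feedback inhibitor that holds SCAP in the endoplasmic reticulum and is itself an SREBP target, was at 84.2, 47.6 and 100.4 CPM and then at 42.4, 56 and 43.4 CPM, with a log2 fold change of -0.71 ± 0.26.

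Along the pathway to cholesterol, Hmgcs1, which makes HMG-CoA, was at 72.7, 50.8 and 119 CPM after 4 weeks and 58.9, 41.9 and 53.3 CPM after 16 weeks. The ranges overlapped, and the log2 fold change was -0.64 ± 0.26. The kinases and the decarboxylase that follow had ranges apart: Mvk was at 16.8, 17.1 and 22.8 CPM and then at 8.53, 11.2 and 4.55 CPM, with the lowest fitted log2 fold change of the list, -1.21 ± 0.37. Mvd had a log2 fold change of -0.73 ± 0.22, Pmvk of -0.53 ± 0.25 and the farnesyl diphosphate synthase Fdps of -0.71 ± 0.29.

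In the later steps, Cyp51, which removes a methyl group from lanosterol, was at 92.2, 54.8 and 79.6 CPM after 4 weeks and at 38.4, 46.7 and 48.7 CPM after 16 weeks. Its groups did not overlap, and the log2 fold change was -0.76 ± 0.21 with an edgeR adjusted p of 0.323; its exons share bases with Akap9. Sqle, the epoxidase of squalene, had a log2 fold change of -0.67 ± 0.26 with no overlap. Some genes of the list were nearer to 0: Msmo1 had -0.08 ± 0.20, Dhcr7 -0.14 ± 0.23 and Sc5d -0.18 ± 0.17. So was Acat2, which is not one of the later steps, at -0.14 ± 0.26. Between these values lay Lss, Nsdhl, Hsd17b7 and Fdft1, at -0.37 ± 0.25, -0.21 ± 0.22, -0.56 ± 0.39 and -0.27 ± 0.25. Idi1, which was below 7 CPM in every library, had log2 fold changes of -1.45 to -0.65 when each library was left out.

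Stard4, a carrier of cholesterol within cells, had a log2 fold change of -0.38 ± 0.17. In fatty acid synthesis, Fasn was at 138, 98.4 and 101 CPM and then at 84.4, 64.3 and 92.8 CPM, without overlap and with a log2 fold change of -0.48 ± 0.18. Acly had -0.22 ± 0.12, Acaca -0.24 ± 0.30, Scd2 -0.73 ± 0.41 and Elovl6 0.11 ± 0.26. By contrast, of 28 genes of fatty acid uptake, storage and oxidation, 0 passed an unadjusted p of 0.05 in either direction, with a median log2 fold change of -0.02.

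**Figure D2:**
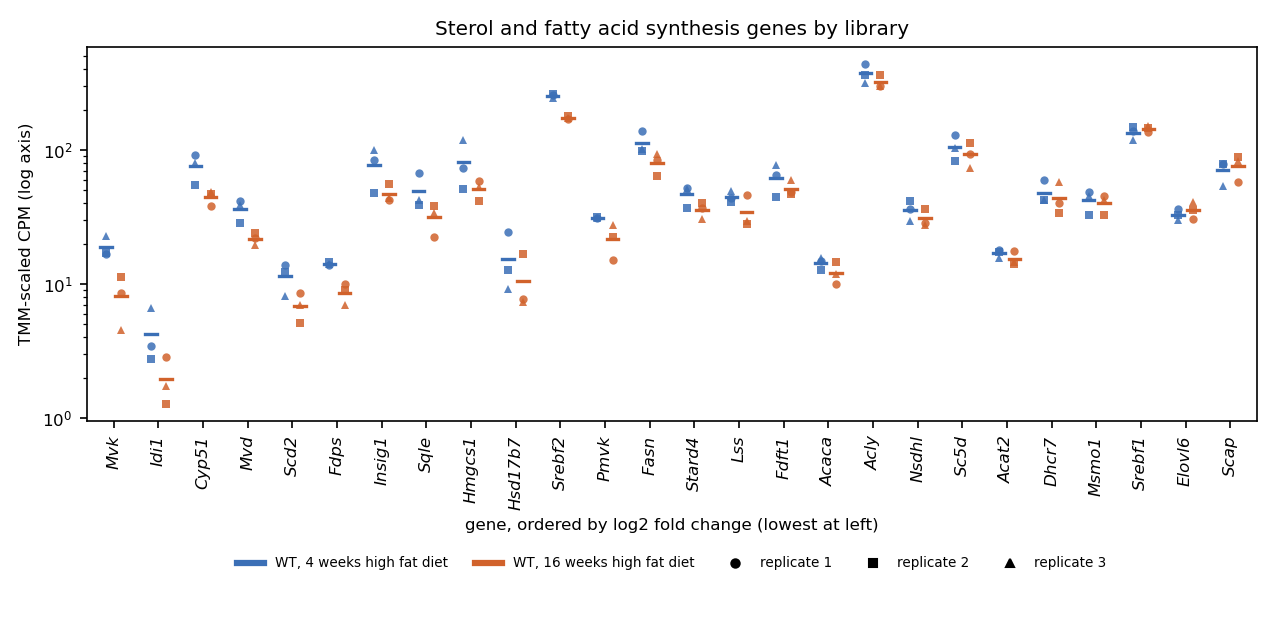
TMM-scaled CPM on a log axis for 26 sterol and fatty acid synthesis genes in the 3 WT libraries of 4 weeks (blue) and the 3 of 16 weeks (orange), with marker shape for the replicate and a line for the group mean. The mean was lower after 16 weeks for 23 of them, and the 3 libraries of Srebf2 lay at 169 to 179 CPM against 243 to 261 CPM.

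The summed level of the sterol list was 2275, 1844 and 1964 CPM after 4 weeks and 1511, 1652 and 1599.8 CPM after 16 weeks. The groups did not overlap, and the exact permutation p was again 0.1. The lowest library of 16 weeks was replicate 1 for 12 of the genes, replicate 2 for 10 and replicate 3 for 7, so the order of the libraries differed from gene to gene. Leaving out replicate 1 of 4 weeks, which was the highest library of the sum, reduced the members at an unadjusted p under 0.05 from 14 to 8.

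The 16 genes with the smallest p, 8 in each direction, had edgeR adjusted p of 0.135 to 0.263 and ranges that did not overlap, and DESeq2 called 15 of them. Their choice by smallest p in these same libraries has a part in both the ranges and the DESeq2 calls. On the lower side, beside Crip1, Tagln2, Lgals1 and Anxa6, stood Gzmb, which encodes the cytotoxic protease granzyme B (chromosome 14, 56258838 to 56262260). Gzmb was at 56.6, 90.1 and 81.7 CPM after 4 weeks and at 11.1, 12.2 and 35 CPM after 16 weeks. It was 3.96-fold lower in the mean, with a log2 fold change of -1.99 ± 0.40, an edgeR adjusted p of 0.177 and a DESeq2 adjusted p of 0.0308. Cdc25b, a phosphatase that starts entry into mitosis, had the smallest p of the named genes, at 331, 406 and 352 CPM and then 234, 234 and 209.9 CPM. Its log2 fold change was -0.69 ± 0.12 with an edgeR adjusted p of 0.135 and a DESeq2 adjusted p of 0.000716, and its exons share bases with Spef1. Myo1g, a myosin of blood cells, and Pik3r5, a regulatory subunit of PI3K gamma, had log2 fold changes of -0.51 ± 0.11 and -0.71 ± 0.15.

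On the higher side, Pdcd1, which encodes the inhibitory receptor PD-1 (chromosome 1, 94038305 to 94052553), was at 550.0, 437 and 472 CPM after 4 weeks and at 709.7, 777 and 1035 CPM after 16 weeks. All 3 libraries of 16 weeks were above all 3 of 4 weeks, with a log2 fold change of 0.79 ± 0.19, an edgeR adjusted p of 0.263 and a DESeq2 adjusted p of 0.0414. Bcl6 encodes a transcriptional repressor that directs the follicular T cell program. It was at 8.8, 16.7 and 24.9 CPM and then at 49.2, 28.2 and 37.8 CPM, with a log2 fold change of 1.22 ± 0.30. Gpm6b, a membrane glycoprotein gene best known from neurons, was 3.07-fold higher in the mean, at 26.4, 23 and 22.3 CPM and then 100.1, 41 and 79.9 CPM. Its log2 fold change was 1.62 ± 0.30 with an edgeR adjusted p of 0.135. The protease gene Ctsw and the mineralocorticoid receptor gene Nr3c2 had log2 fold changes of 1.49 ± 0.33 and 1.85 ± 0.41, Ctsw with replicate 3 of 16 weeks highest at 170.3 CPM. Smpd5, a sphingomyelinase, and Mynn, a zinc finger protein, had 1.06 ± 0.25 and 0.69 ± 0.16. Slc6a8, the creatine transporter, was below 1 CPM in all libraries of 4 weeks, under the limit that a count of 0 allows, and at 3.98, 6.4 and 4.91 CPM after 16 weeks. Exons of Ctsw share bases with Fibp and those of Smpd5 with Oplah.

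Treg identity genes had no common direction. Of 20 core identity genes, 10 had a negative and 10 a positive log2 fold change, with a median of 0.02; 2 were lower and 1 higher at an unadjusted p under 0.05. Foxp3 was at 527, 516 and 585 CPM after 4 weeks and at 530.0, 520.4 and 514 CPM after 16 weeks. The log2 fold change was -0.06 ± 0.11, and the groups overlapped. Ctla4 and Tnfrsf18, the receptors CTLA-4 and GITR, had -0.10 ± 0.15 and -0.09 ± 0.13, Tnfrsf4 (OX40) had -0.01 ± 0.15, and Ikzf2, the factor Helios, had 0.23 ± 0.13.

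The IL-2 receptor arm was lower in part. Il2ra, the high affinity chain, was at 509, 509 and 488 CPM after 4 weeks and at 305, 496 and 308 CPM after 16 weeks. Libraries 1 and 3 of 16 weeks were low and replicate 2 lay among those of 4 weeks, with a log2 fold change of -0.44 ± 0.18 and an edgeR adjusted p of 0.605. Socs2, a STAT5-induced feedback inhibitor, was at 139, 193 and 218 CPM and then at 93.5, 132 and 122 CPM, without overlap, with a log2 fold change of -0.66 ± 0.16 and a DESeq2 adjusted p of 0.0492. Cish, of the same family, was at 721, 681 and 667 CPM and then at 359.7, 657 and 488 CPM, a log2 fold change of -0.46 ± 0.15. With the kinase gene Pim1, 4 of 17 genes of this list were lower at an unadjusted p under 0.05 (23.5%) and 0 higher; without replicate 1 of 16 weeks the count was 2.

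The adipose Treg signature had no common direction in WT. Of 27 genes tested, 11 had a negative and 16 a positive log2 fold change, with a median of 0.14, and 3 were lower and 1 higher at an unadjusted p under 0.05. Klrg1 was at 1131, 1346 and 859.7 CPM after 4 weeks and at 449.8, 1357 and 806 CPM after 16 weeks. Il1rl1 was at 585, 661 and 318 CPM and then at 314, 771 and 247 CPM. In both genes replicate 2 of 16 weeks was the highest of all 6 libraries, and the spread within 16 weeks exceeded the distance between the groups, with log2 fold changes of -0.35 ± 0.29 and -0.23 ± 0.33. Pparg, the master regulator of adipose Tregs, was at 54, 53.6 and 22.8 CPM and then at 11.4, 29.8 and 22.1 CPM, with a log2 fold change of -1.06 ± 0.44 and an edgeR adjusted p of 0.61. Replicate 3 of 4 weeks lay within the range of 16 weeks. The chemokine receptor gene Ccr2 had -0.42 ± 0.21, the growth factor gene Areg -0.36 ± 0.33, the nuclear receptor gene Rora -0.25 ± 0.24, Gata3 0.06 ± 0.18, Il10 0.25 ± 0.45 and the fatty acid transporter gene Cd36 1.29 ± 1.14, the last below 15 CPM in every library. Without replicate 2 of 16 weeks, 7 members of the signature were lower at an unadjusted p under 0.05; without replicate 1 of 16 weeks or replicate 2 of 4 weeks, 1 was.

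Of 30 immediate early and TCR-induced genes, 6 were lower (20%) and 1 higher (3.33%) at an unadjusted p under 0.05. Egr1, a transcription factor induced within minutes of TCR signalling, was at 730.2, 567 and 688 CPM after 4 weeks and at 267, 372 and 339.5 CPM after 16 weeks. The groups were well apart, with a log2 fold change of -1.02 ± 0.26 and an edgeR adjusted p of 0.275. Fosb, an AP-1 subunit, was at 163, 136 and 139 CPM and then at 77.9, 107 and 92.5 CPM, and Cd69, a marker of recent activation and tissue residence, at 741, 687 and 942 CPM and then at 529.7, 599 and 581 CPM. Neither overlapped, with log2 fold changes of -0.66 ± 0.22 and -0.47 ± 0.16. Leaving out replicate 1 of 16 weeks reduced the 6 genes to 3. Cell sorting itself can induce such genes, and its part was not tested. The 30 genes of TCR proximal signalling had a median log2 fold change of 0.00, with 2 lower and 0 higher.

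Of 20 TNF receptor superfamily genes and ligands, 4 were higher (20%) and 0 lower at an unadjusted p under 0.05, and of 11 co-inhibitory receptors 2 were higher, Pdcd1 and Tigit. Ltb, the membrane anchor of lymphotoxin, was at 655, 576 and 807 CPM after 4 weeks and at 1012, 869 and 842 CPM after 16 weeks, without overlap and with a log2 fold change of 0.42 ± 0.12. Tnfrsf9, the costimulatory receptor 4-1BB, was at 202, 122 and 193 CPM and then at 195, 244 and 373 CPM, a log2 fold change of 0.65 ± 0.25. Tigit was at 509, 581 and 535 CPM and then at 541, 633 and 1198 CPM; replicate 3 of 16 weeks stood far above the rest, and the log2 fold change was 0.55 ± 0.23. Without replicate 2 of 4 weeks 1 TNF family gene passed the unadjusted threshold, and without replicate 1 of 4 weeks or of 16 weeks 2 did. Among 19 Treg effector molecules, 3 were lower, Gzmb and Lgals1 with them, and 4 were higher, among them the chemokine gene Ccl4, at 8.04, 27.4 and 5.07 CPM and then 81.3, 37.8 and 229.8 CPM, and the enkephalin gene Penk, at 60.5, 29.4 and 69.5 CPM and then 179, 115 and 102 CPM.

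Of 38 cell cycle genes, 7 were lower (18.4%) and 0 higher, with a median log2 fold change of -0.29; the transcription factor gene E2f2, at 37.1, 42.1 and 34 CPM and then 20.8, 12.5 and 26.6 CPM, had the smallest p among them. Without single libraries the count of 7 ran from 3 (without replicate 2 of 4 weeks or replicate 1 of 16 weeks), through 4 (without replicate 1 of 4 weeks), to 10 (without replicate 3 of 4 weeks), and the median from -0.49 to -0.11. With no filter on low counts the count was 12, and with limma-voom, the replicate block, a minimum count of 30 or fits of fewer libraries it was 4. Of 21 genes of the unfolded protein response 5 were lower (23.8%), led by Herpud1 at -0.31 ± 0.12, and 0 higher; the count was 3 without replicate 2 of either group and 2 without replicate 1 of 16 weeks. All 7 mitochondrially encoded genes tested had a positive log2 fold change, with a median of 0.29, and 4 were higher at an unadjusted p under 0.05; without replicate 1 or 2 of 4 weeks 0 were, without replicate 1 of 16 weeks 2 were, and without replicate 3 of 4 weeks 7 were. The 69 nuclear genes of oxidative phosphorylation had a median of -0.06, with 4 lower (5.8%) and 0 higher. Hif1a, the hypoxia factor, was at 419, 383 and 487 CPM and then at 616, 606 and 639 CPM, while Ldha, its target in glycolysis, was at 1410.0, 1452 and 1395 CPM and then at 1000.0, 1143 and 1164 CPM. In neither gene did the groups overlap, with log2 fold changes of 0.53 ± 0.16 and -0.36 ± 0.11. No member passed an unadjusted p of 0.05 among 82 cytosolic ribosomal protein genes or 15 genes of MHC class I presentation, and among 29 interferon-stimulated genes 0 were lower and 1 higher. The insulin receptor gene Insr, at 0.05 ± 0.17, and the clock genes Arntl, Nr1d1 and Nr1d2, at -0.26 ± 0.17, -0.30 ± 0.38 and 0.06 ± 0.34, overlapped between the groups, and so did Tcf7, a factor of resting T cells, at 0.56 ± 0.35.

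The other 13 functional lists had medians from -0.15 to 0.08 on the log2 scale, with 0 to 3 members lower and 0 to 3 higher at an unadjusted p under 0.05. Among them the chemokine receptor gene Ccr4 was at 284, 219 and 278 CPM after 4 weeks and at 175, 173 and 130.3 CPM after 16 weeks, and Itgb8, the integrin chain with which Tregs activate TGF-beta, at 20.7, 25 and 32 CPM and then at 37, 38.7 and 117 CPM. Their log2 fold changes were -0.71 ± 0.24 and 1.31 ± 0.40, and neither overlapped. Furin, a convertase that processes TGF-beta, was at 176, 136 and 138 CPM and then at 69.1, 129.9 and 64.5 CPM. Birc2, an inhibitor of apoptosis, was at 67, 66.7 and 79.1 CPM and then at 114, 99.2 and 116 CPM, and Cry1, a repressor of the clock, at 111, 90.9 and 94.3 CPM and then at 81.6, 74.3 and 64.1 CPM. In these 3 genes too the groups lay apart, with log2 fold changes of -0.77 ± 0.27, 0.63 ± 0.18 and -0.43 ± 0.14.

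**Figure D3:**
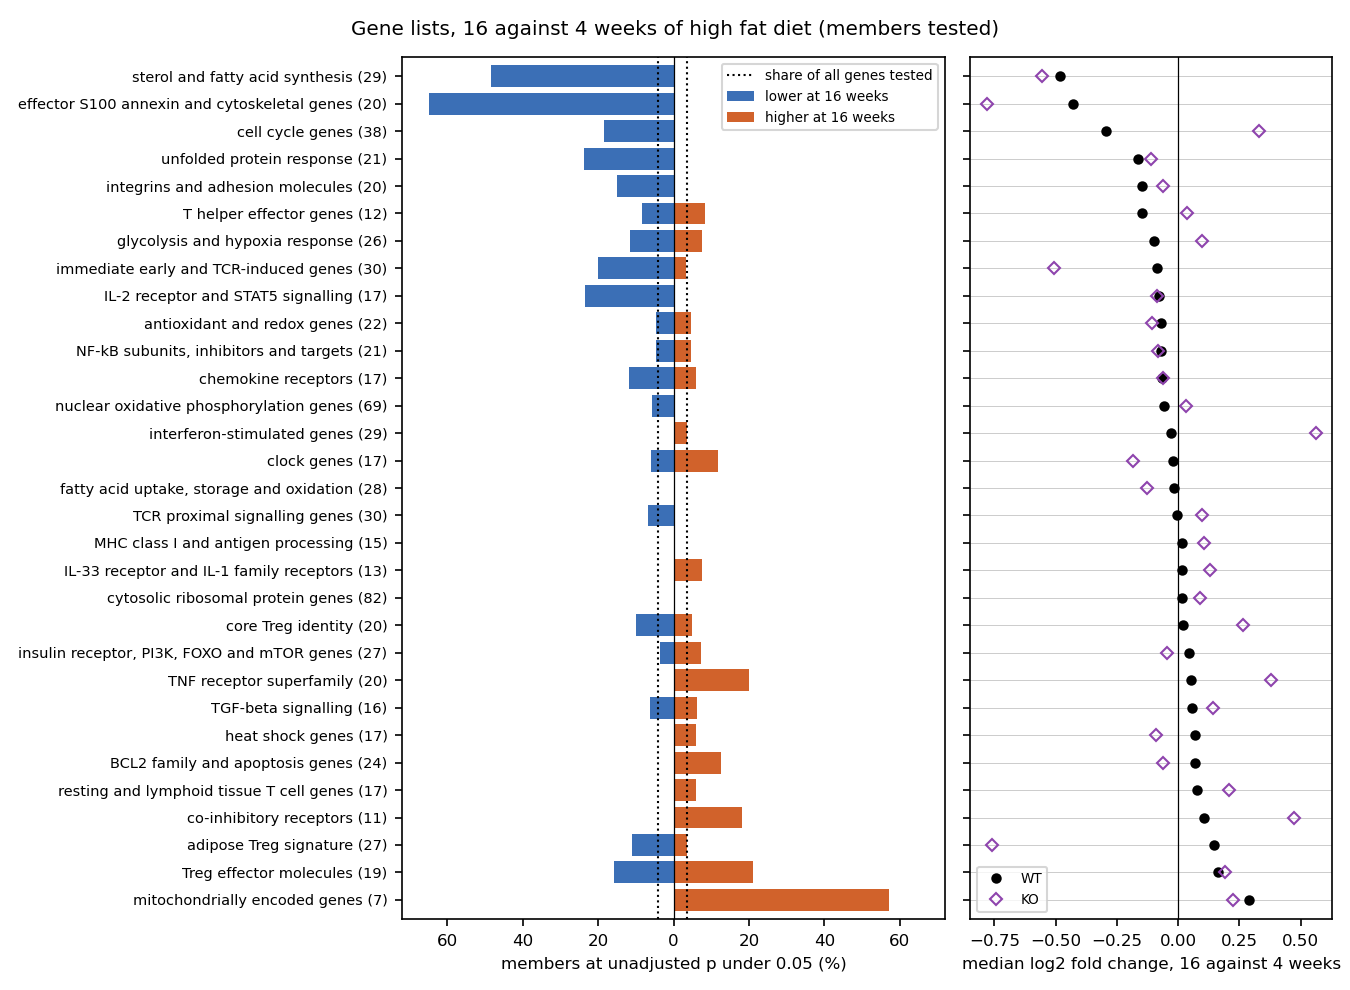
For the 31 functional gene lists, the left panel gives the percent of tested members at an unadjusted p under 0.05, lower after 16 weeks to the left (blue) and higher to the right (orange), with dotted lines at the shares over all genes tested, 4.1% and 3.45%. The right panel gives the median log2 fold change in WT (dots) and KO (diamonds); the effector and sterol lists were lowest in WT at -0.43 and -0.48, and that of the cell cycle list was -0.29 in WT and 0.33 in KO.

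Markers of other cells were present at low levels in all 6 libraries and varied between single libraries. Summed levels over the whole marker lists were 18.6 to 24.7 CPM for macrophages, 1.59 to 14.7 CPM for stromal cells, 3.06 to 8.53 CPM for adipocytes, 55.7 to 167 CPM for endothelial cells and 0.32 to 4.2 CPM for red blood cells. B cell markers summed to 521 to 889 CPM after 4 weeks and 419 to 1048 CPM after 16 weeks, and class II and dendritic cell markers to 57.8 to 116 CPM and 52.6 to 83.4 CPM. Plasma cell markers summed to 71 to 131 CPM and 83.9 to 104 CPM, and mesothelial markers to 95.9 to 197 CPM and 78.2 to 259 CPM. Cytotoxic and NK markers, a list that holds Gzmb, summed to 362, 692 and 592 CPM after 4 weeks and 318, 443 and 1337 CPM after 16 weeks, with replicate 3 high, the library in which Tigit and Ctsw were also highest. ILC2 markers, which adipose Tregs share in large part, summed to 2499 to 3050 CPM and 1956 to 4076 CPM, highest in replicate 2 of 16 weeks. Neutrophil and mast cell markers summed to 6.09 to 20.7 CPM except in that library, at 181 CPM, which came from Kit. Several listed markers had no count in any of the 6 libraries: Cd8a, the adipocyte genes Lep and Retn and the stromal gene Pdgfrb. The same held for the keratin genes Krt8 and Krt19 with Upk1b, Mcpt4 and S100a9, Mzb1 and Ighg2c, and 4 haemoglobin genes. Some other members of these lists had counts in all 6 libraries. Beside Cd8a stood Cd8b1 at 10.8 to 38.1 CPM and Nkg7 at 146 to 659 CPM. Beside the keratins stood Epcam at 41.2 to 80.5 CPM and Lrrn4 at 30.4 to 192 CPM, and beside Mzb1 Txndc5 at 67 to 129 CPM. The markers without a count therefore describe single genes and not the absence of a cell type. Whether other cells had a part in the results was not tested, and in bulk libraries fewer cells with a gene and less RNA of it per cell cannot be told apart.

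The KO libraries give the same contrast without a shared library, though from the same fit with a shared estimate of the spread. There edgeR called 192 genes (1.64%), 46 higher (0.393%) and 146 lower (1.25%). This count depended on single libraries. It was 32 without replicate 1 of KO at 16 weeks, and 81 and 126 without replicates 3 and 2 of that group. Without replicates 3 and 1 of KO at 4 weeks it was 62 and 67. Replicate 1 of KO at 16 weeks also stood out in markers of other cells. Its stromal markers summed to 145 CPM, against 3.31 to 9.19 CPM in the other KO high fat diet libraries. Its adipocyte markers summed to 59.4 CPM, against 4.86 to 13.9 CPM. Among these libraries it was also highest for endothelial, B cell and macrophage markers, but not for the remaining marker lists. The part of such cells in the KO calls was not tested. Of the 192 genes 168 (87.5%) had the same sign in WT, against 56.8% of all genes tested, and 75 of them also had an unadjusted p under 0.05 in WT, 62 lower and 13 higher. In the other direction, 623 of the 884 WT genes at an unadjusted p under 0.05 (70.5%) had the same sign in KO. Of the 16 WT genes with the smallest p, 15 kept their sign in KO, all but Mynn, and 5 were called there: Crip1, Tagln2, Lgals1, Pik3r5 and Gpm6b.

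In KO all 20 effector genes had a negative log2 fold change too, with a median of -0.78, and 13 fell past the adjusted threshold. Among them the log2 fold change was -1.25 ± 0.17 for Crip1 (edgeR adjusted p = 0.000701), -0.97 ± 0.15 for Tagln2 (0.00226), -1.10 ± 0.17 for Lgals1 (0.0023) and -2.30 ± 0.34 for Lmna (0.00205). Of the sterol list 8 fell past the threshold, with a median log2 fold change of -0.56 over the 29. Among these were Srebf2 at -0.82 ± 0.13 (0.0031), Sqle at -1.45 ± 0.26 (0.00655), Hmgcs1 at -1.33 ± 0.26 (0.0129) and Cyp51 at -0.93 ± 0.20 (0.0218), with Idi1 and Srebf1. In the 6 fits that each left out 1 KO high fat diet library, Srebf2 was called in 6, Sqle in 5 and Hmgcs1 in 3. Cyp51 was called in 1 of these fits, and Idi1 and Srebf1 in 0. Without replicate 1 of KO at 16 weeks 6 effector and 3 sterol genes were called. Without replicate 1 or 3 of KO at 4 weeks or replicate 3 of KO at 16 weeks 8 effector genes were, with 5, 4 and 4 sterol genes in that order.

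Of the adipose Treg signature in KO, 8 genes fell and 1 rose past the threshold, with a median of -0.76, while in WT the median was 0.14. The WT median was near 0 and its sign rested on single libraries: it was -0.02 without replicate 1 of 4 weeks, -0.04 without replicate 2 or replicate 3 of 16 weeks, 0.03 without replicate 3 of 4 weeks, and 0.20 and 0.23 without the other two. The KO log2 fold change was -1.66 ± 0.22 for Ccr2 (edgeR adjusted p = 0.000701), -1.65 ± 0.30 for Klrg1 (0.00683), -1.53 ± 0.34 for Il1rl1 (0.0218) and -1.87 ± 0.45 for Pparg (0.0366). A test of the difference itself, the interaction of genotype and length of diet, called 0 of 11698 genes with edgeR (0%) and 1 with DESeq2 (0.00855%), with 784 at an unadjusted p under 0.05 (6.7%). Of the 27 signature genes 15 were at an unadjusted threshold of 0.05 in the interaction, none of them past the adjusted one. Without replicate 1 of KO at 16 weeks 2 signature genes were called lower, and 5 to 7 without any other KO library. Over these 6 fits Ccr2 was called in 6, Klrg1 in 5, and Il1rl1 and Pparg in 1 each.

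**Figure D4:**
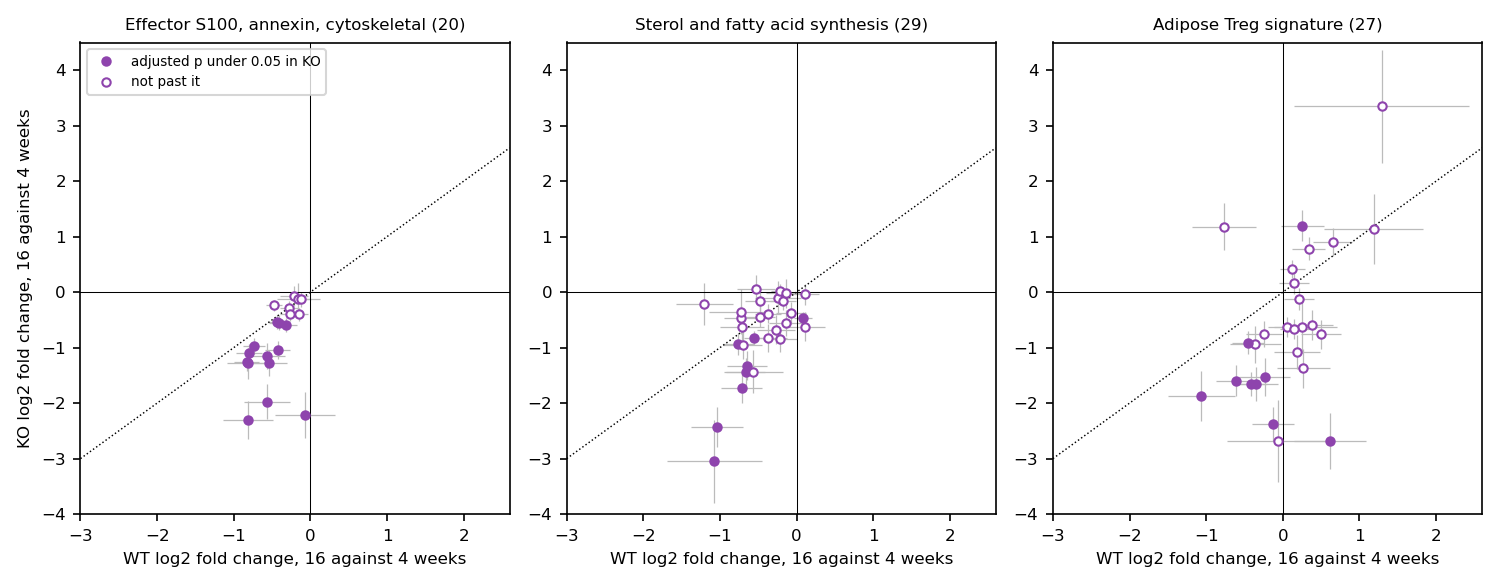
Log2 fold change of 16 against 4 weeks in WT (x axis) and in KO (y axis) with standard errors for the effector, sterol and adipose Treg signature genes, filled where the edgeR adjusted p in KO was under 0.05, with a dotted line of equal change. All effector genes lie to the lower left of 0, as do most sterol genes, and the signature genes spread around 0 in WT with a KO median of -0.76.

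Both WT high fat diet groups were also set against the WT libraries of lean diet. The lean and the 4 weeks groups were both 18 weeks old, and the 16 weeks group was 30 weeks old. Diet and age therefore cannot be told apart between lean diet and 16 weeks. Against lean diet, edgeR called 0 genes after 4 weeks (0%; 654, or 5.59%, at an unadjusted p under 0.05) and 10 after 16 weeks (0.0855%), 7 lower (0.0598%) and 3 higher (0.0256%), and these comparisons share libraries with the 16 against 4 weeks contrast. Lower than lean after 16 weeks were 3 genes of the sterol list with Srebf2 among them, Crip1 and Ahnak of the effector list, Gzmb and Fosb, and higher were Pdcd1, Tnfrsf9 and Ltb. The mean after 4 weeks lay between the lean mean and the 16 weeks mean for all 10 genes, in which the choice of genes against lean has a part.

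Srebf2 was at 406, 316 and 294 CPM on lean diet, against 243 to 261 CPM after 4 weeks and 169 to 179 CPM after 16 weeks, with no overlap between any 2 groups. Its log2 fold change against lean was -0.41 after 4 weeks and -0.96 after 16 weeks (edgeR adjusted p = 0.00424). Gzmb was at 93.3, 81.9 and 103 CPM on lean diet, within reach of 4 weeks, with -0.29 and then -2.27 (0.0232). Pdcd1 was at 420.2, 361 and 261 CPM on lean diet, below every library of either high fat diet, with 0.49 and then 1.27 (0.00881). The median log2 fold change against lean of the sterol list was -0.32 after 4 weeks and -0.84 after 16 weeks, and that of the effector list -0.10 and -0.47. The count of 10 genes called after 16 weeks against lean changed when single libraries were left out. It was 3 without replicate 1 of lean diet, and 5 without replicate 3 of lean diet or replicate 1 or 3 of 16 weeks. Without replicate 2 of lean diet it was 13, and without replicate 2 of 16 weeks 28. These are counts over all genes tested.

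**Figure D5:**
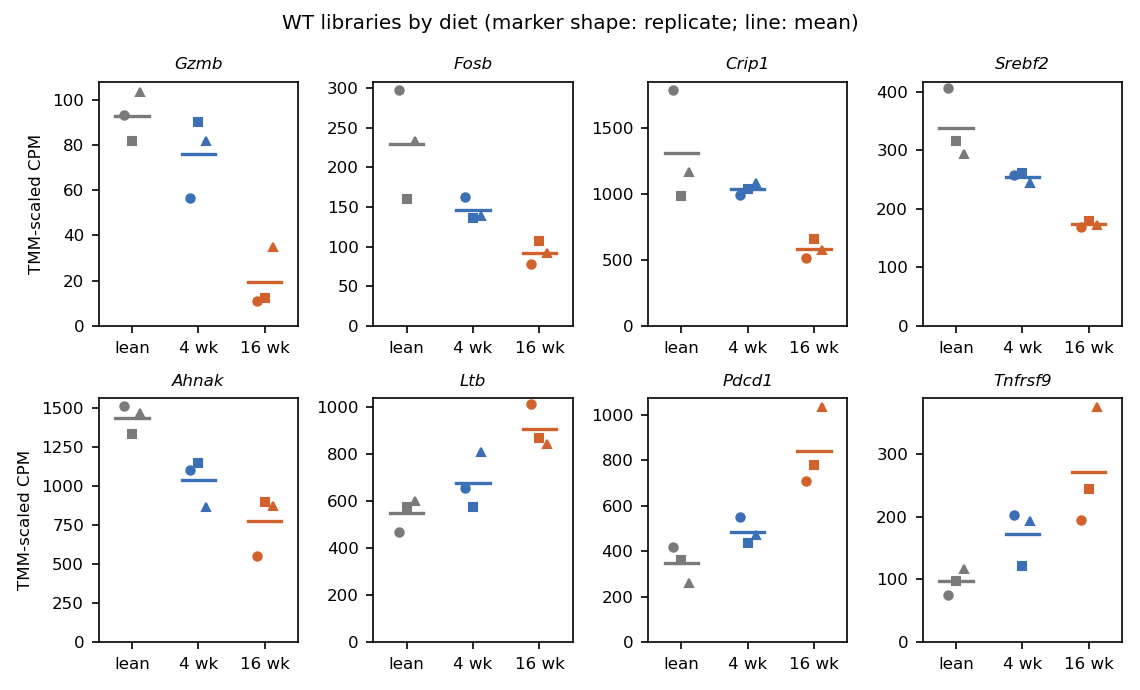
TMM-scaled CPM in the 9 WT libraries (3 on lean diet, 3 after 4 weeks and 3 after 16 weeks) for 8 of the 10 genes called after 16 weeks against lean, with marker shape for the replicate and a line for the mean. The 4 weeks mean lies between the others in all 8 panels, and the 4 and 16 weeks libraries do not overlap for 6 genes.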

How the data were processed

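The submitters' processing notes name STAR 2.7.3a, featureCounts and the build mm10; counting and strand settings are not stated there. Per the labels' protocols, cDNA from an anchored oligo(dT) primer went through limited PCR and Nextera XT tagmentation, with no molecular identifier named. The deposited table holds the authors' whole-number counts for 55011 gene symbols, with no scaling stated or seen. Counts were fitted with edgeR 4.0.16 in R 4.3.3 by the quasi-likelihood F test over the 18 diet libraries after TMM scaling and the edgeR filter (minimum count 10), which left 11698 genes. Adjusted p values are Benjamini-Hochberg values of this test over all genes unless another tool is named, with 0.05 as the threshold. Errors after log2 fold changes are standard errors. DESeq2 1.42.0 and limma 3.58.1 were alternatives, and the closing part gives the rest. The scripts were tested on simulated data. Positions and exon overlaps come from GENCODE M21. Each group has its own mean, with no replicate block. No 2 libraries were copies: the chi-square of their counts per degree of freedom was 5.28 to 12.6.

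The members, the 42 gene lists (12 of them markers of other cells) and the ribosomal protein genes were chosen with earlier results of these data known, and comparisons with lean diet and the KO list counts under other settings were added after seeing the data. Named genes were the 8 with the smallest p in each direction, since fewer than 10 passed (leaving out predicted genes, pseudogenes, Rik clones and antigen receptor segments), a fixed set of Treg, adipose and clock genes, list members past the threshold and the 2 smallest p of a list. Outside this rule, and picked with values in view, were the whole effector and sterol lists, the genes called after 16 weeks against lean diet, and Pim1, Cd69, Ccl4, Penk and Kit. Some genes of these lists are counted but not reported here one by one.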

Additional observations from a re-analysis of the deposited data

How the results depend on the processing

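In WT, 16 against 4 weeks, the edgeR count of 0 genes became 96 with no filter on low counts and 27 with DESeq2, and 0 to 3 when each library was left out. The 884 genes at an unadjusted p under 0.05 became 1779 with no filter and 589 when only the 6 WT libraries were fitted. With the replicate block the counts were 0 and 865 in the 18 libraries, and 0 and 567 in the 6 alone. Deviations of same-numbered libraries correlated at -0.04, 0.14 and -0.02, and not every library correlated best with its own number. With 3 libraries per group these values cannot decide whether the numbers pair the libraries. The KO count of 192 became 638 with no filter, 346 with DESeq2, 193 with the block, and 32 to 175 without each library. The interaction count of 0 became 211 with no filter, 1 with DESeq2 and 0 to 3 without each library (3 without WT replicate 1 of 16 weeks, 1 without WT replicate 2 of 4 weeks). Against lean diet, the count after 4 weeks became 40 with no filter, and that after 16 weeks 178 with no filter, 82 with DESeq2 and 3 to 28 without each library. Leaving out each library gave 6 to 15 effector and 8 to 13 sterol members at an unadjusted p under 0.05, and negative log2 fold changes for 18 to 20 effector and 24 to 28 sterol genes. With no filter on low counts, the members at an unadjusted p under 0.05 went from 6 to 13 for immediate early, 3 to 6 for adipose signature and 4 to 7 for TNF family genes, from 5 to 2 for the unfolded protein response, and the KO signature calls from 8 to 18. Fitting only the 6 libraries gave 2 TNF family, 2 mitochondrial and 3 unfolded protein response genes. The summed adipose signature differed by 31.1 CPM (16 minus 4 weeks), and by -1274 to 1438 CPM without each library, a change of sign. Most named genes kept their sign in WT under every setting, and 17 of 130 did not. Tnfrsf4 was 0.0029 with no filter, 0.0024 with limma-voom, 0.0055 with the block in the 6 libraries, and -0.16 to 0.11 without each library. Without each library the log2 fold change ran from -0.63 to 0.53 for Anxa1, -0.25 to 0.0042 for Ctla4, -0.39 to 0.058 for Dhcr7, -0.0014 to 0.20 for Elovl6, -0.24 to 0.23 for Gata3, -0.11 to 0.98 for Il10, -0.90 to 0.048 for Il1rl1, -0.079 to 0.17 for Insr, and from -0.34 to 0.051 for Itgb1, -0.23 to 0.049 for Msmo1, -0.099 to 0.21 for Nr1d2, -0.043 to 0.27 for Scap, -0.0038 to 0.15 for Srebf1, -0.11 to 0.89 for Tcf7, -0.21 to 0.024 for Tnfrsf18 and -0.29 to 0.0089 for Zyx. The causes were not tested, other than that no filter adds genes with few counts and leaving out a library removes a sample. Depth limits genes near 1 CPM, such as Slc6a8 in the libraries of 4 weeks.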

Other observations

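The genes that follow were picked with their values in view. Siglech, a receptor of plasmacytoid dendritic cells, was at 0, 17.1 and 25.4 CPM after 4 weeks and had no count in the 3 libraries of 16 weeks. Kit, the stem cell factor receptor found on mast cells, was at 10.7, 5.55 and 5.07 CPM after 4 weeks and at 5.4, 181 and 18.6 CPM after 16 weeks. The library with 181 CPM, replicate 2, was also the highest of the 6 libraries for Klrg1, Il1rl1, Areg, at 831 CPM, and Cxcl2, at 608 CPM. Cpa3, Mcpt4 and Fcer1a, of the same marker list as Kit, had no count in that library.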
